A study of Mus musculus with 7 samples.

Results

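Levels of 10 genes linked to the lipid receptor Trem2 were followed in leukocytes of the mouse heart before and after myocardial infarction. The genes were taken by symbol, and all 10 were found in all 7 single-cell RNA libraries, among the 27514 genes that both annotations of the files share. They are Trem2 and its adaptor Tyrobp, the lipid genes Apoe, Lpl and Fabp5, the lysosomal and membrane proteins Gpnmb, Cd63 and Cd9, the secreted protein Spp1 and the lectin Lgals3. Male C57BL6/J mice had the left coronary artery tied permanently. In the CD45+ set, all heart leukocytes were sorted from mice without infarct (steady state, 5 mice pooled) and at day 1 (5 mice), day 3 (5 mice), day 5 (5 mice) and day 7 (3 mice), with 1 library per time and a step that reduced neutrophils. In the CD11b+ pool, heart myeloid cells of day 1 (5 mice), day 3 (5 mice) and day 5 (3 mice) carried hashtag antibodies and shared 1 library, in which 10 surface antibodies were also counted. Leukocytes inside vessels were stained by intravenous antibody to CD45.2 and left out of both sorts, and the tissue was the infarct, its border and the adjacent left ventricle. A further pool held CD11b+ cells of blood and heart from C57BL6/J mice aged 8 to 10 weeks that had no surgery, sham surgery or an infarct, at day 1 or day 3 after either operation, under 7 hashtags that the labels do not tie to these conditions. The labels name no modified gene, and no sham group in the first 2 sets.

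Trem2 is a receptor of macrophages and microglia that binds lipids and lipoproteins. It has no signalling tail of its own and signals through the ITAM of Tyrobp, also called DAP12. In tissues rich in dying cells or lipid, such as plaque, fatty liver and the demyelinated brain, macrophages with Trem2 are known to carry much RNA of Gpnmb, Spp1, Apoe, Fabp5, Cd63, Lgals3, Lpl and Cd9. After infarction, monocytes enter the heart, take up dead myocytes and neutrophils, and become macrophages over days.

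In the GENCODE annotation of GRCm38 all 10 genes are protein-coding. The receptor gene Trem2 (ENSMUSG00000023992) lies at chr17:48346401-48354147 and Tyrobp (ENSMUSG00000030579) at chr7:30413760-30417585, both on the + strand. Of the lipid genes, Apoe (ENSMUSG00000002985) lies at chr7:19696109-19699188 on the - strand, Lpl (ENSMUSG00000015568) at chr8:68880491-68907448 on the + strand and Fabp5 (ENSMUSG00000027533) at chr3:10012548-10016607 on the + strand. Gpnmb (ENSMUSG00000029816) lies at chr6:49036546-49070929 on the + strand, Cd63 (ENSMUSG00000025351) at chr10:128900989-128912822 on the + strand and Cd9 (ENSMUSG00000030342) at chr6:125460266-125494791 on the - strand. Spp1 (ENSMUSG00000029304) lies at chr5:104435118-104441050 and Lgals3 (ENSMUSG00000050335) at chr14:47367751-47386160, both on the + strand.

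The 250 bases before the start of the 3 genes whose presence in the same cells was counted are shown here, since their RNAs had different time courses (RefSeq promoter windows, GRCm38.p6, all on the + strand, 5′ to 3′). They lie at chr17:48346151-48346400 for Trem2, chr6:49036268-49036517 for Gpnmb and chr5:104434861-104435110 for Spp1. Capitals mark the matches to the 7 motifs searched on both strands.
Trem2: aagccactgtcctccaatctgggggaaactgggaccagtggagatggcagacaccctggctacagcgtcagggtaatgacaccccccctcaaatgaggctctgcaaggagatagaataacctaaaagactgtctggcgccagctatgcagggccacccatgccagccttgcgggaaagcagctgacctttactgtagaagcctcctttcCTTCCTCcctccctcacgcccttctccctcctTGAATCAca
Gpnmb: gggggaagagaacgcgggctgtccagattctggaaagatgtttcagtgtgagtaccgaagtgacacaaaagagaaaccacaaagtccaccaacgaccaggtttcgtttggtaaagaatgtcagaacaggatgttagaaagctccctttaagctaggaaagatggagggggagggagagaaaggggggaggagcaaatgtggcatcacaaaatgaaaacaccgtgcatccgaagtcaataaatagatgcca
Spp1: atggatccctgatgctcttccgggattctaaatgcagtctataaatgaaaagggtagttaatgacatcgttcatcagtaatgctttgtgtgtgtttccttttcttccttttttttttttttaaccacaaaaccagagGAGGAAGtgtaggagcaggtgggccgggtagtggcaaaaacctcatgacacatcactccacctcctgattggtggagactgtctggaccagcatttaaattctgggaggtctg
The Trem2 window held an AP-1 match (TGANTCA) that began 9 bases before the start and an ETS purine box (GAGGAAG, here on the other strand) that began 41 bases before it. The Spp1 window held an ETS purine box that began 113 bases before the start, and the Gpnmb window held no match. AP-1 matches stood in 6.75% and ETS boxes in 10.6% of the 32851 windows of this length in the table. The other motifs were the E-box CACGTG, in 6.02% of all windows, its longer form with GT before and AC after, in 0.24%, and the M-box TCATGTG, in 3.25%. Direct repeats of AGGTCA with 1 base between (PPAR, 0.0335%) or 4 bases between (LXR, 0.0152%) were searched as well. None of these 5 was found in the 10 windows given for 7 of the 10 genes. Tyrobp, Fabp5 and Lpl had no window.

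After filters, 639 steady-state, 522 day 1, 846 day 3, 945 day 5 and 1793 day 7 cells of the CD45+ set, 4282 cells of the CD11b+ pool and 9999 cells of the blood and heart pool were used. Cells were clustered without the 10 genes and classed by marker genes. The monocytes/macrophages numbered 524, 245, 633, 731 and 572 cells at steady state and days 1, 3, 5 and 7 of the CD45+ set and 241, 1165 and 1405 cells at days 1, 3 and 5 of the CD11b+ pool. Their median depth was 7180.5 to 10636 UMIs per cell in the CD45+ set and 22172 to 28613 in the pool. Libraries shared at most 12 barcodes. The CD45+ day 1 library stood apart: its monocytes/macrophages held 19319 CPM (UMIs of a gene or list scaled to a library sum of 1e+06) of 15 neutrophil markers, more than the 2788 CPM of their own 15 class markers, and all 15 neutrophil markers were present. The neutrophil-marker level was 159.8, 1830, 459 and 367 CPM at steady state and days 3, 5 and 7, and 2181, 750 and 663 CPM at days 1, 3 and 5 of the pool, with 0 to 2 of the 15 markers at 0. The neutrophils of the CD45+ day 1 library held 236037 CPM of them. Effect sizes between days and the tests of classes are therefore also given without it.

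Levels are CPM of the summed UMIs of a class, so a value reflects how many cells of each kind entered the class as well as the RNA per cell, and these cannot be told apart in a sum. Each time has 1 library of pooled mice, so intervals (exact Poisson, 95%) cover counting error only.

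Trem2 was higher on day 5 than on day 1 in both sets. In monocytes/macrophages of the CD45+ set, Trem2 stood at 178.8 CPM (interval 165.7 to 192.7) at steady state. It then stood at 23.5 (17.6 to 30.6), 341.9 (328.5 to 355.6), 800.1 (778.7 to 821.9) and 864.0 (841.4 to 887.0) CPM on days 1, 3, 5 and 7. In the CD11b+ pool it stood at 185.0 (173.9 to 196.6), 531.1 (523.8 to 538.5) and 873.7 (864.9 to 882.5) CPM on days 1, 3 and 5. Days 1, 3 and 5 followed in the same order in both sets, while the 2 day 1 values lay far apart: that of the pool was close to steady state, and that of the CD45+ library was the lowest of the 8. Tyrobp, the adaptor, varied less, at 2573, 1805, 3121, 3269 and 3428 CPM in the CD45+ set and 1997, 2076 and 2400 CPM in the pool. The lowest of the 8 Tyrobp values was that of day 1 and the highest that of day 7, both in the CD45+ set.

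Apoe, which packs cholesterol and phospholipid for export, was high at steady state, low on day 1 and high again from day 5. Its level was 31173 CPM at steady state and 1251, 8094, 30565 and 32848 CPM on days 1, 3, 5 and 7, and 2329, 6790 and 16539 CPM in the pool. The steady-state, day 5 and day 7 values of the CD45+ set were alike in size, and the day 1 value was the lowest of all 8. Fabp5, a cytosolic carrier of fatty acids, did not start high: it stood at 53.0 CPM at steady state, then 177.9, 655.4, 1320 and 882.4 CPM on days 1, 3, 5 and 7, and 713.1, 2121 and 3122 CPM in the pool. Lpl, the lipase that frees fatty acids from triglyceride, stood at 49.4, 37.8, 90.1, 145.2 and 130.4 CPM in the CD45+ set and at 290.5, 346.7 and 390.9 CPM in the pool. The sets differed more than the days for Lpl, as every pool value lay above every value of the CD45+ set.

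Gpnmb, a glycoprotein of lysosomes and the cell surface, was near 0 in the uninjured heart. It stood at 1.82 CPM at steady state (7 UMIs in 524 cells) and at 13.5 (31 UMIs), 169.0, 731.2 and 373.6 CPM on days 1, 3, 5 and 7, and at 53.8, 346.1 and 840.6 CPM in the pool. The values were highest on day 5 in both sets, and the day 7 library lay between days 3 and 5. Cd63, a tetraspanin of late endosomes and lysosomes, stood at 628.4, 290.5, 420.2, 1887 and 1239 CPM in the CD45+ set and at 317.2, 602.9 and 1280 CPM in the pool, highest on day 5 in each. Cd9, a tetraspanin of the plasma membrane, was highest on day 1. It stood at 120.1 CPM at steady state and at 629.3, 303.7, 305.6 and 377.1 CPM on days 1, 3, 5 and 7, and at 743.4, 304.9 and 302.7 CPM in the pool. Both day 1 values of Cd9 lay above all 6 others.

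Spp1, the secreted adhesion protein osteopontin, appeared early. It stood at 34.1 CPM at steady state and at 2225, 8237, 6645 and 3731 CPM on days 1, 3, 5 and 7, and at 8486, 9660 and 8609 CPM in the pool. The highest value was that of day 3 in each set, and the pool was already high on day 1, when its Trem2 and Gpnmb were low. Lgals3, galectin-3, stood at 424.9, 2435, 3788, 5202 and 2955 CPM in the CD45+ set and at 3283, 3771 and 4615 CPM in the pool, lowest at steady state and highest on day 5.

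**Figure D1:**
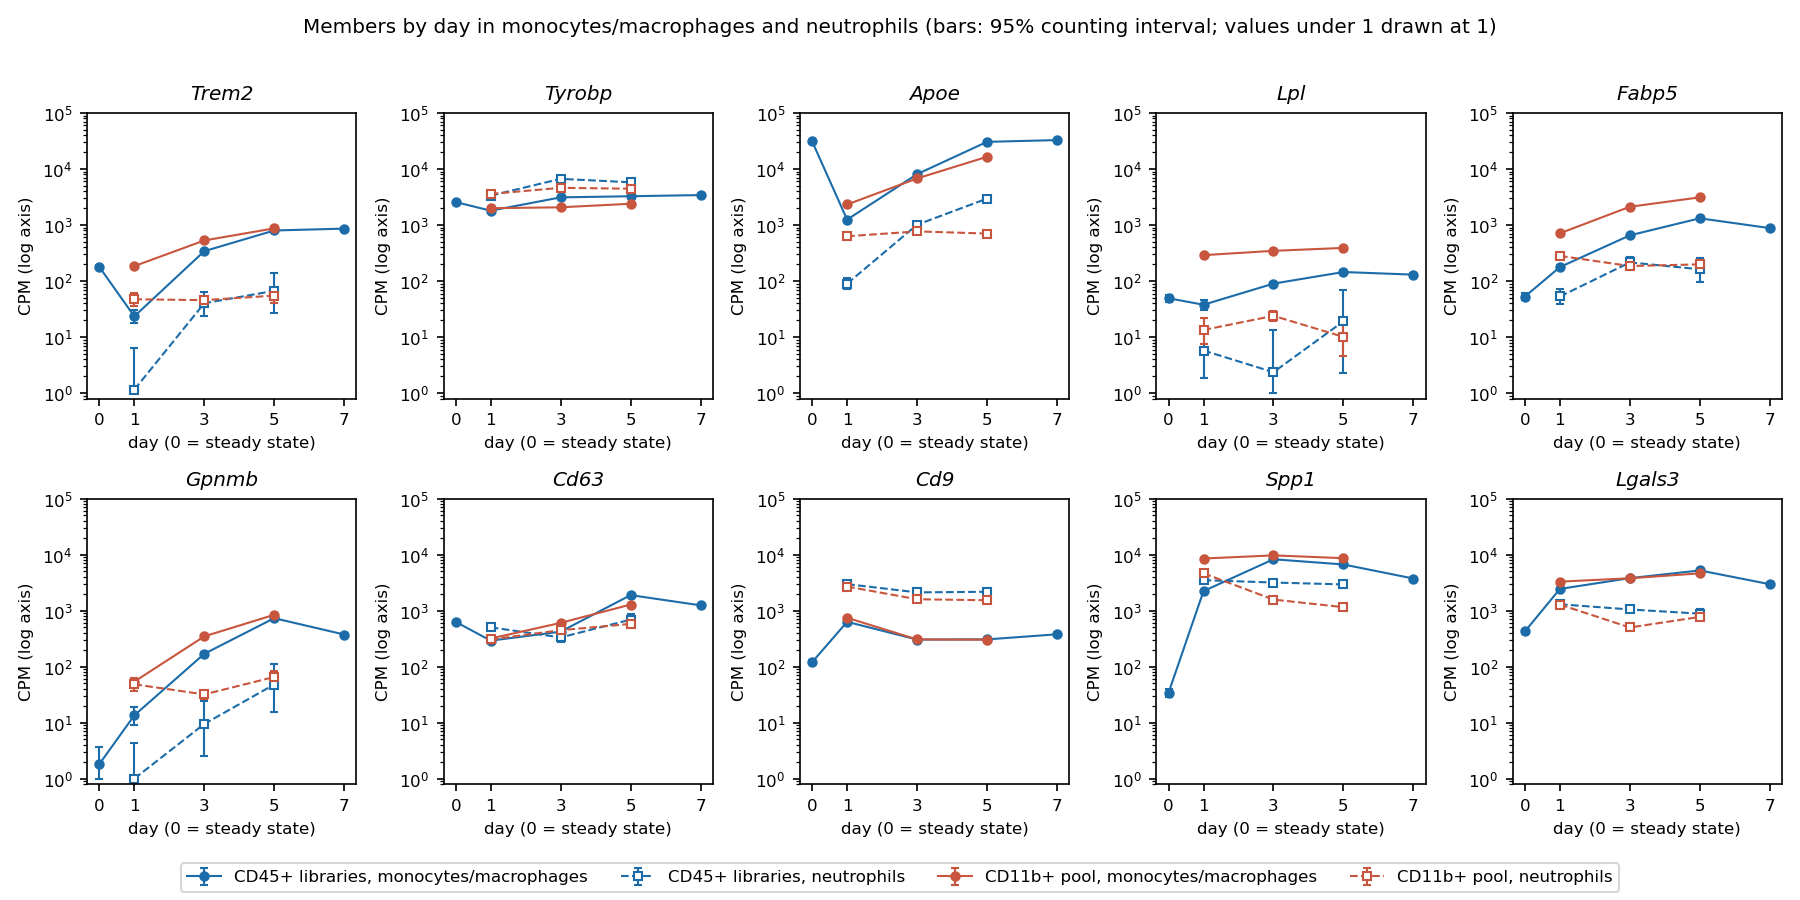
CPM (log axis) of each gene against day, with steady state at 0, in monocytes/macrophages (filled circles) and neutrophils (open squares) of the CD45+ libraries and the CD11b+ pool; bars are 95% counting intervals and values under 1 are drawn at 1. Trem2 rose from 23.5 to 800.1 CPM between days 1 and 5 in the CD45+ macrophages and from 185.0 to 873.7 CPM in the pool, while neutrophils lay above macrophages for Cd9 and Tyrobp.

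The days were compared in monocytes/macrophages with edgeR's quasi-likelihood test on the 6 sums of days 1, 3 and 5, with the 2 sets as the only replicates of a day. A term for the set took up the mean difference between the 2 sets. The p-values thus measure only how far the day changes differed between 2 sets of pooled mice. These sets also differed in sort and chemistry. All 10 genes passed the filter on low counts. Over days 1 to 5, 5 of the 10 rose and 1 fell at an adjusted p under 0.05, against 9.49% of all 10626 genes tested (4.04% higher, 5.45% lower). The median log2 change of the 10 was 1.50, beside -0.02 over all genes. The 10 were chosen with earlier results of these data known, so these values describe them and do not test the set. Gpnmb rose by 4.52 ± 0.42 (log2 change ± SE, adjusted p = 0.00744), Apoe by 3.45 ± 0.41 (adjusted p = 0.0123) and Trem2 by 3.18 ± 0.66 (adjusted p = 0.0411). Fabp5 rose by 2.26 ± 0.20 (adjusted p = 0.00734) and Cd63 by 2.13 ± 0.27 (adjusted p = 0.0134), and Cd9 fell by 1.42 ± 0.15 (adjusted p = 0.0103). All 6 moved in the same direction in each set. Lgals3 (0.54, adjusted p = 0.0995), Lpl (0.87, adjusted p = 0.14), Spp1 (0.47, adjusted p = 0.451) and Tyrobp (0.30, adjusted p = 0.342) did not pass.

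Leaving out the CD45+ day 1 sum left 1 sum for day 1, so only effect sizes are given here. Trem2 then had a log2 change of 2.24 and Spp1 of -0.14. The median of the 10 was 1.27, beside 0.02 over all genes. Without the CD45+ day 5 sum, which left 1 sum for day 5, the calls of Trem2 and Cd9 were lost. The median of the 10 was then 1.13. Trem2 also missed the threshold when the 10 genes were kept in the clustering (adjusted p = 0.0686), and Cd9 when cells were classed by their own marker UMIs (log2 change -0.90, adjusted p = 0.179). With no term for the set, none of the 10 passed, nor did any of the genes tested. The neutrophil-marker level given above was lower on day 5 than on day 1 in both sets, and its part in the fall of Cd9, which neutrophils hold at a higher level, was not tested.

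Between days 1 and 3 none of the 10 passed (0.0376% of all genes did), although DESeq2 called 5 of the 10 and 4.74% of all genes. By edgeR, 5 of the 10 and 1839 of all 10626 genes had an unadjusted p under 0.05. The log2 changes were 2.80 ± 0.39 for Gpnmb (adjusted p = 0.0528), 1.49 ± 0.20 for Fabp5 and -1.39 ± 0.15 for Cd9 (both adjusted p = 0.052). Between days 3 and 5 none passed either (0.0282% of all genes did), while DESeq2 called 3 of the 10 and 0.941% of all genes. By edgeR, 4 of the 10 and 781 of all genes had an unadjusted p under 0.05. Gpnmb stood at 1.72 ± 0.36, Apoe at 1.62 ± 0.38 and Cd63 at 1.61 ± 0.26. Cd9 stood at -0.03 ± 0.15 and Spp1 at -0.28 ± 0.39 in this step. Without the CD45+ day 1 sum, the median log2 change of the 10 was 0.33 between days 1 and 3 and 0.59 between days 3 and 5. Over all genes it was 0.02 and 8.6e-04.

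**Figure D2:**
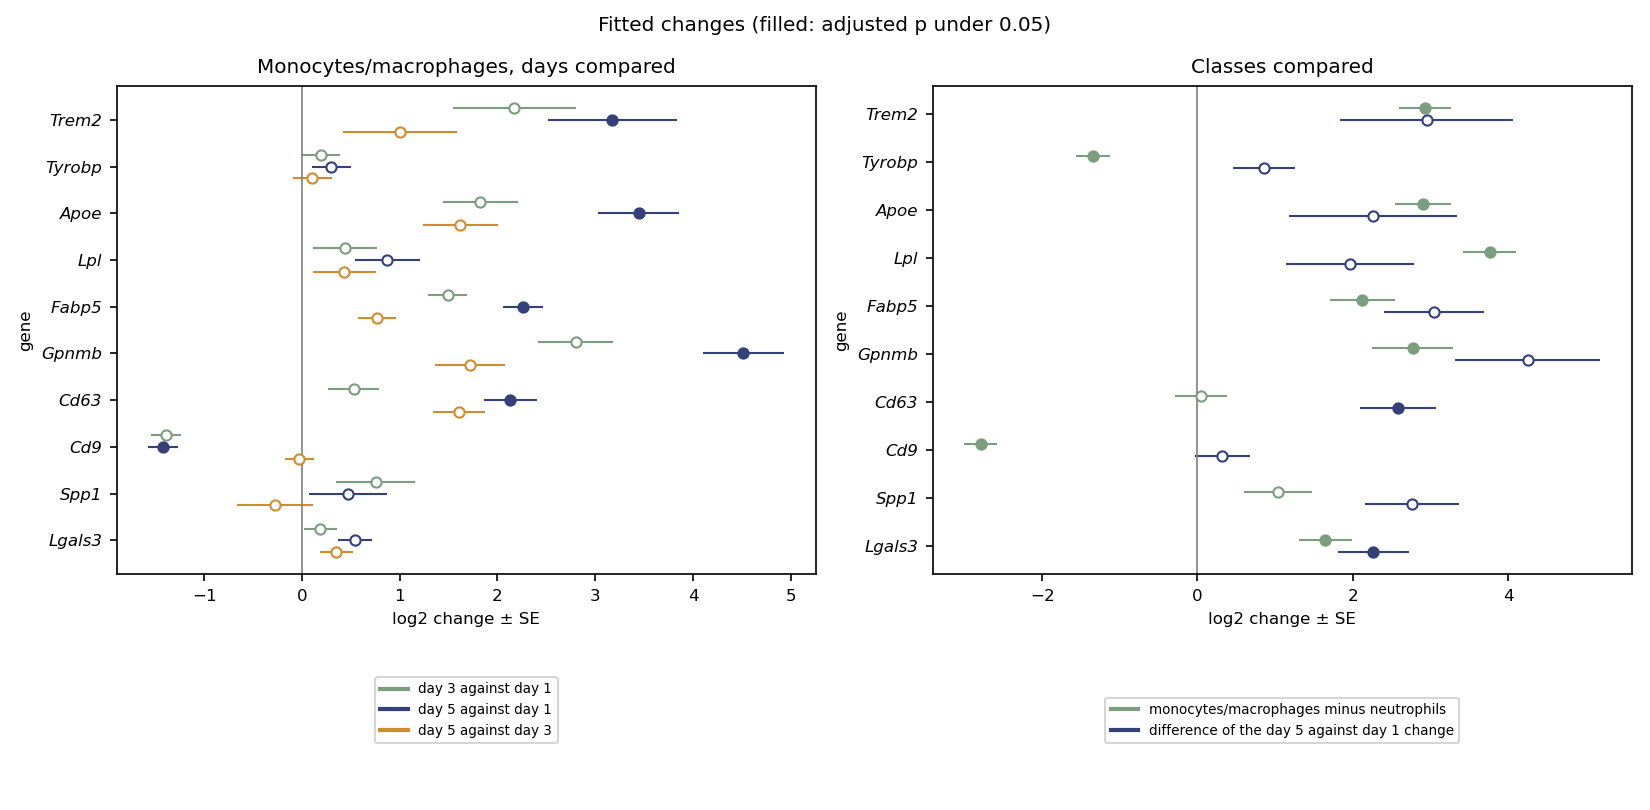
Fitted log2 changes with standard errors for the 10 genes, left between days in monocytes/macrophages and right between classes and for the difference of the day 5 against day 1 change between classes; filled points have an adjusted p under 0.05. From day 1 to day 5 Gpnmb stands at 4.52, Apoe at 3.45 and Trem2 at 3.18, and Cd9 at -1.42.

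The mixture of macrophage states changed with the days. At day 1 of the CD45+ set, 210 of 245 cells (85.7%) lay in an inflammatory-like cluster led by Cxcl3, Lcn2 and S100a8, and at steady state 314 of 524 (59.9%) lay in an MHC II-high-like cluster. At day 3, 40.1% lay in an inflammatory-like cluster led by Arg1 and 34.6% in a monocyte-like cluster, and at day 5 the largest share, 26.7%, lay in a cluster led by Ccl8. Days 3 and 5 were also compared inside each of the 15 state clusters with at least 30 cells on both days (11 of the pool, 4 of the CD45+ set). Cells of a cluster can still differ in state between days, so the state is not held fixed. The pool clusters led by Hbb-bs and by S100a9, genes of other cells, were among them. Clusters of a set share mice and library, so the counts carry no test. The ratios are of CPM, and counting intervals separate easily where UMIs are many. No share over all genes is given for the same clusters, so how unusual the counts are cannot be told.

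Inside the clusters, Trem2 was higher on day 5 in 15 of 15, with counting intervals apart in 12, and its median log2 ratio was 0.57. Whether such counts set a gene apart from all genes cannot be told, and Tyrobp had intervals apart in 10. Apoe was higher in 15 of 15 (median 1.27) and so was Cd63 (median 0.97), each with all 15 intervals apart. Gpnmb was higher in 13 of 15 (median 1.13). The 2 clusters where Gpnmb was lower were the monocyte-like clusters of the pool, where it went from 95.96 to 24.06 CPM and from 169.7 to 92.34 CPM. Spp1 was lower on day 5 in 11 of 15 clusters (median -0.50), 10 of them with intervals apart. Fabp5 and Lpl were higher in 10 of 15 each, Lgals3 in 12, Tyrobp in 14 and Cd9 in 10, with medians of 0.22, 0.15, 0.10, 0.23 and 0.06. Between days 1 and 3, 3 clusters of the pool could be compared, and Trem2, Gpnmb and Apoe were higher on day 3 in each of them. In the same 3 clusters, the day 5 level lay above that of day 1 in 3 for Trem2 (median log2 ratio 1.19), Gpnmb (0.82), Apoe (2.50) and Cd63 (1.03). Counting intervals were apart in 3 for Trem2, Apoe and Cd63 and in 2 for Gpnmb. In the remaining cluster, Plac8-led monocyte-like cells, Gpnmb had 8 and 23 UMIs. These were 14.9 and 24.06 CPM, beside 48.3 and 65.2 CPM in neutrophils of the pool. Fabp5 was higher on day 5 in 2 of the 3 (median 0.24, beside 2.26 in the fit over the class). Cd9 was lower in 2 (median of the 3 -1.05) and higher in 1 (log2 ratio 1.23). Lgals3 and Spp1 were lower in 2 of 3 (medians -0.19 and -1.05), and Lpl was lower in 3 (median -1.68). From day 5 to day 7, in 5 clusters of the CD45+ set, Trem2 was higher in 5 (median 0.21), Gpnmb lower in 4 (median -0.49) and Lgals3 and Fabp5 lower in 5. Of these, the counting intervals were apart in 2 for Trem2, 2 for Gpnmb, 4 for Lgals3 and 2 for Fabp5.

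**Figure D3:**
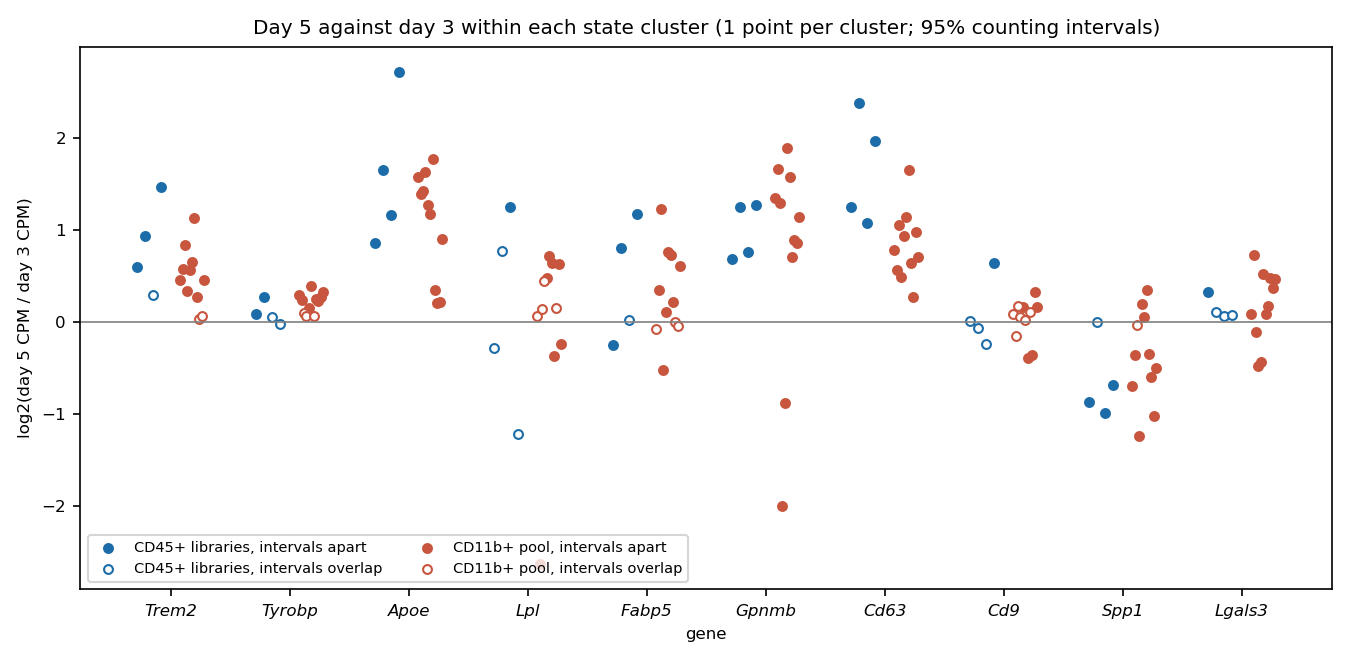
Log2 ratio of the day 5 to the day 3 level of each gene, with 1 point per state cluster of at least 30 cells on both days (4 clusters of the CD45+ libraries, 11 of the CD11b+ pool); filled points have 95% counting intervals that do not overlap. All 15 points lie above 0 for Trem2, Apoe and Cd63, while 11 of 15 lie below 0 for Spp1. No share over all genes is given for these clusters.

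Across states, Trem2 and Gpnmb peaked in a few clusters without an assigned name, called here by the genes that lead them once the 10 are set aside. The clusters were built from the same cells, so these levels are a description. In the CD45+ set the 317 cells led by Ccl8 and the hemoglobin genes Hbb-bs and Hba-a1 had the highest levels of Gpnmb (1282 CPM), Fabp5 (2588), Cd63 (2513), Lgals3 (7242) and Lpl (267.4), with Trem2 at 1147. The 173 cells led by Cma1, Tpsb2 and Ctsd had the highest Trem2 (1193 CPM) and Apoe (46412), with Gpnmb at 445. Cma1, Tpsb2 and Mcpt4, also among its leading genes, are mast cell proteases. They summed to 352.4 CPM there and were found in 3.47% of its cells, and 5 of 6 other mast cell and basophil markers were present (34.7 CPM). The part of such cells in the Trem2 and Apoe levels was not tested. The next cluster in the order of Trem2, an MHC II-high-like cluster led by Cd72 and Ms4a7, held 752 CPM of Trem2 but 191 CPM of Gpnmb. Resident-like macrophages, led by Folr2, Lyve1 and Retnla, held 323 CPM of Trem2 and 26870 of Apoe, but 10.5 CPM of Gpnmb and 130 of Spp1. Erythroid markers were highest in the day 5 library (1623 CPM in monocytes/macrophages, against 128 to 432 CPM in the other CD45+ libraries), and their part in the Ccl8-led cluster was not tested.

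In the pool, the 351 cells led by Selenop, Gdf15 and Ms4a7 had the highest Trem2 (1144 CPM), Gpnmb (1127), Apoe (27308) and Cd63 (1583). The 400 cells led by Hmox1, Pf4 and Ctsl had the highest Fabp5 (4961 CPM), Lpl (612.9) and Lgals3 (5914), with Spp1 at 16574 and Gpnmb at 1033. Spp1 was higher only in the 56 cells led by Saa3, S100a8 and Gm42418 (18852 CPM). These cells were shallow, at a median of 7809 UMIs against 18719 to 51665 in the other clusters of the pool with at least 30 cells. Neutrophil genes such as S100a8, S100a9 and Stfa2l1 were among their leading genes (632 CPM of the 15 neutrophil markers, 5 of them at 0). The part of depth and of neutrophil RNA in this level was not tested. Of the 351 Selenop-led cells 309 came from day 5, while the Hmox1-led cells came mainly from days 3 (205) and 5 (191). Cd9 had its own order: it was highest in inflammatory-like cells led by Cxcl3, with 1429 CPM in the pool and 663 CPM in the CD45+ set, the clusters where Trem2 was lowest (106 and 21 CPM). These clusters also held 2251 and 20600 CPM of the neutrophil markers, 210 of the 211 cells of the second came from the CD45+ day 1 library, and Lcn2, S100a8 and S100a9 were among the leading genes of the second. The part of neutrophil RNA in their Cd9 was not tested. The 2 monocyte-like clusters of the pool held 206 and 420 CPM of Trem2 and 77 and 120 CPM of Gpnmb.

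**Figure D4:**
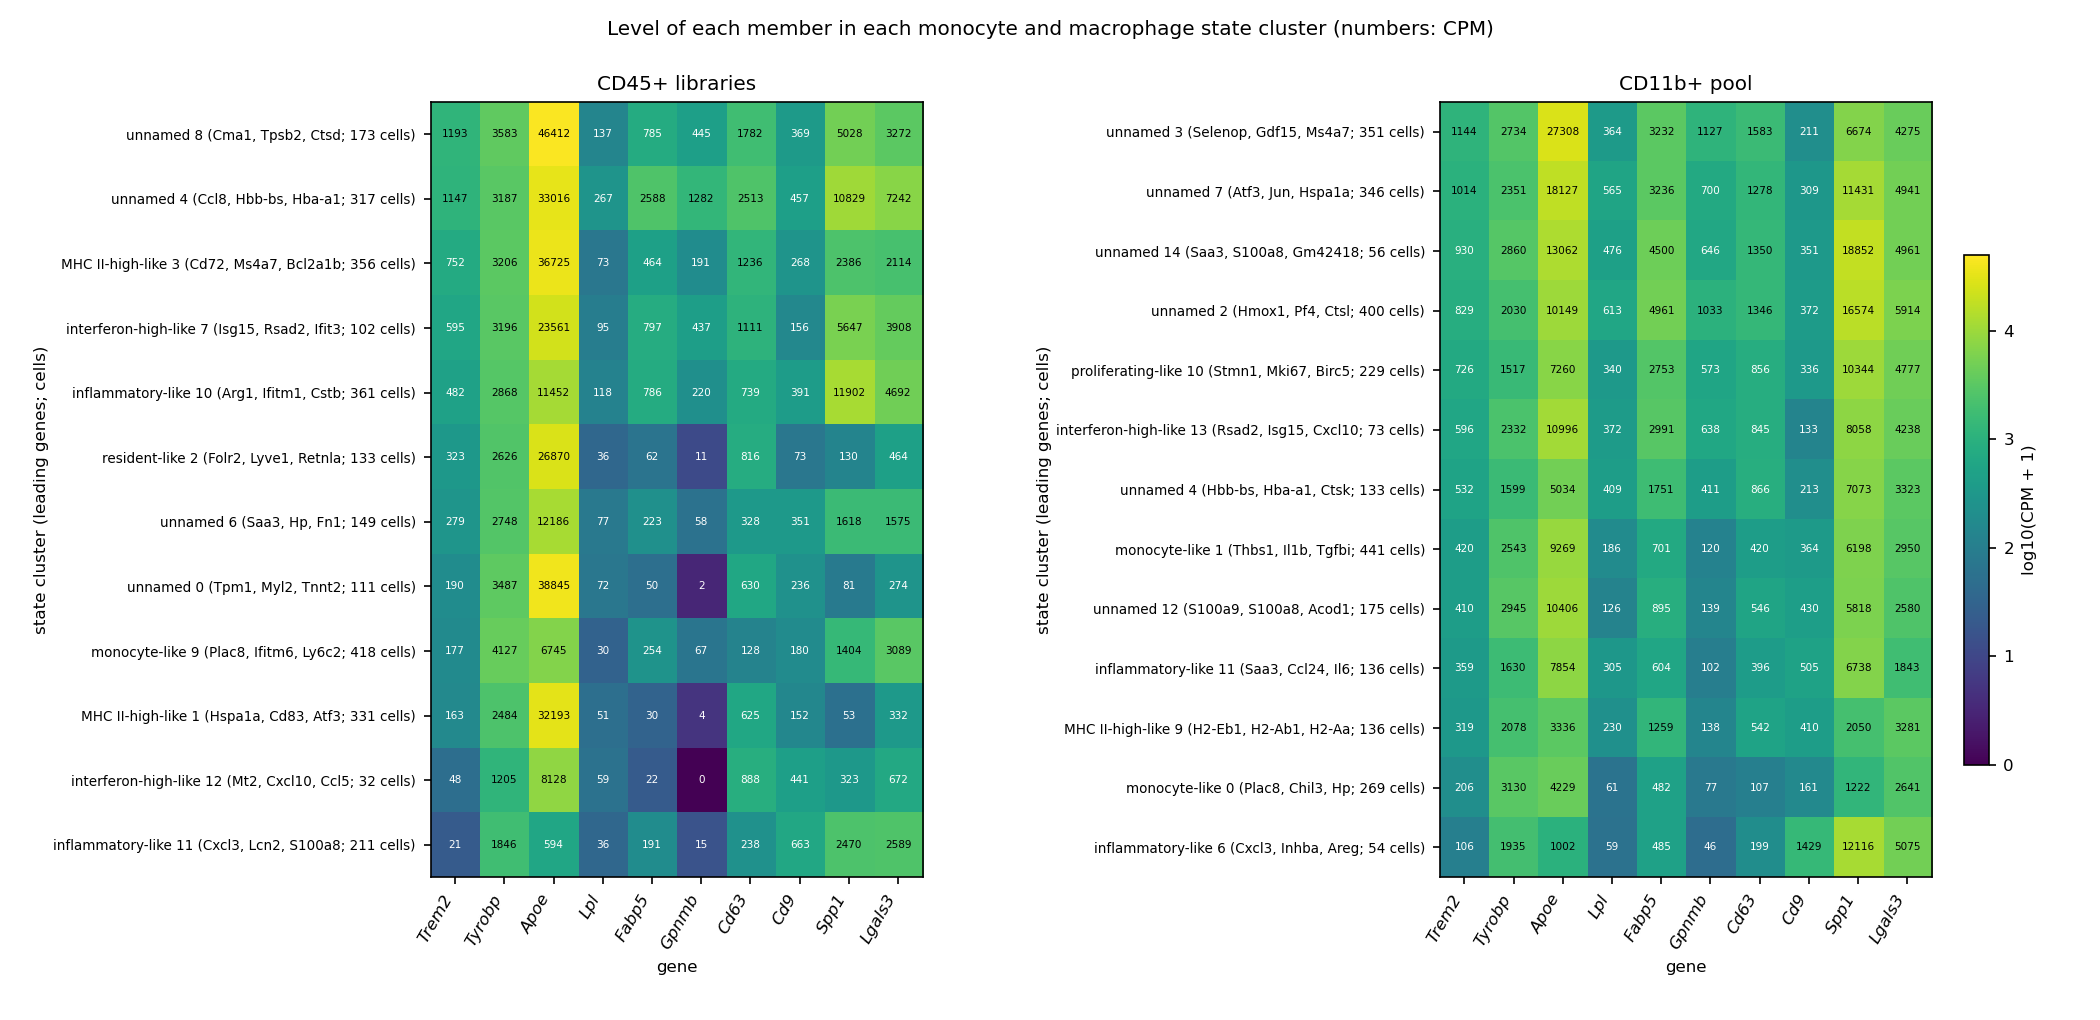
Level of each gene in each monocyte and macrophage state cluster of at least 30 cells, as CPM (numbers) and log10(CPM + 1) (color), with clusters sorted by Trem2 from top to bottom; left the CD45+ libraries, right the CD11b+ pool. Gpnmb stands at 1282 CPM in the Ccl8-led cluster and 10.5 in the resident-like cluster, and Cd9 is highest (1429 CPM) in the cluster of the pool with the lowest Trem2.

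Monocytes/macrophages were compared with neutrophils of the same libraries to see which of the genes mark the macrophage side. The 6 sums per class entered, with each day and set as a block, and 8 of the 10 genes passed edgeR's quasi-likelihood test at an adjusted p under 0.05, against 56.6% of the 8531 genes tested (31.3% higher and 25.2% lower in monocytes/macrophages). This share is high for all genes, and the classes were drawn from the same cells' other genes. The p-values measure how far the class difference varied over days and sets, and the days of the pool shared 1 library. 6 were higher in monocytes/macrophages: Lpl (log2 difference 3.76 ± 0.34), Trem2 (2.93 ± 0.33), Apoe (2.91 ± 0.36), Gpnmb (2.77 ± 0.52), Fabp5 (2.12 ± 0.41) and Lgals3 (1.65 ± 0.34), with adjusted p from 1.8e-07 to 7.65e-04. Cd9 (-2.79 ± 0.21, adjusted p = 2.31e-08) and Tyrobp (-1.34 ± 0.22, adjusted p = 9.26e-05) were higher in neutrophils. Cd63 (0.04 ± 0.34, adjusted p = 0.929) and Spp1 (1.04 ± 0.44, adjusted p = 0.0567) did not pass. For Cd63 this mean covers a difference that changed with the day. Its neutrophil level was 172.8% (CD45+ set) and 96.1% (pool) of the macrophage level on day 1, and 36.5% and 45.1% on day 5. When cells were classed by their own marker UMIs, Lgals3 did not pass (adjusted p = 0.0704). Without the CD45+ day 1 sums 9 of the 10 passed, beside 55.8% of the 9405 genes then tested.

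Neutrophils carried much Spp1 RNA on day 1. Their level was 3491, 3164 and 2929 CPM on days 1, 3 and 5 of the CD45+ set and 4616, 1569 and 1151 CPM in the pool, from 13.4% to 157% of the macrophage level of the same library and day. Neutrophil Cd9 stood at 2962, 2111 and 2163 CPM and at 2684, 1591 and 1528 CPM, 361% to 708% of the macrophage level. Trem2 in neutrophils stood at 1.15, 40.2 and 67.0 CPM in the CD45+ set and at 47.4, 45.7 and 55.1 CPM in the pool. Gpnmb in neutrophils stood at 0, 9.47 and 47.9 CPM (0 to 5 UMIs) and at 48.3, 31.9 and 65.2 CPM. On day 1 of the pool this was 89.7% of the macrophage level of Gpnmb, so Gpnmb in macrophages was not distinct from the level in neutrophils on that day, and on days 3 and 5 it was 9.22% and 7.75%. In the pool, where the 3 days shared 1 library, neutrophil Apoe was 630, 771 and 706 CPM while macrophage Apoe went from 2329 to 16539 CPM. In the CD45+ libraries neutrophil Apoe had the same order of days as in macrophages, at 90.0, 1013 and 2967 CPM, 7.2% to 12.5% of their level. B cells of day 7 held 4.03% (Lpl) to 15.5% (Tyrobp) of the macrophage level of each gene, with 345.3 CPM of Spp1, 110.0 of Trem2 and 31.5 of Gpnmb, and the part of free RNA in these levels was not tested.

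The change from day 1 to day 5 was tested for a difference between the 2 classes with an interaction term over all 12 sums. With all sums the difference was positive for all 10 genes, and 2 passed edgeR's test at an adjusted p under 0.05 (0.777% of 10169 genes did, 0.403% with a positive and 0.374% with a negative difference): Cd63, with a difference of 2.58 ± 0.49 on the log2 scale, and Lgals3, with 2.27 ± 0.45 (both adjusted p = 0.0458). Fabp5 (3.05 ± 0.65, adjusted p = 0.0523), Gpnmb (4.25 ± 0.93, adjusted p = 0.0584) and Spp1 (2.77 ± 0.60, adjusted p = 0.0584) lay just outside. Gpnmb stood at -6.18 ± 7.95 without the day 1 sums of the pool, where the day 1 neutrophils that remained had no Gpnmb UMI. Both calls were lost when the 10 genes were kept in the clustering, when cells were classed by their own markers, and without the day 3 or day 5 sums of the pool or the day 5 sums of the CD45+ set. Without the CD45+ day 1 sums, 1 sum per class was left for day 1. The median difference of the 10 was then 2.51, beside -0.07 over all genes. With scaling by total counts alone, the median difference over all genes moved from -0.02 to -0.77, Cd9 turned to -0.53 and 1 gene passed.

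In the blood and heart pool Gpnmb was close to 0, and its 7 hashtags are given 1 by 1, since the labels do not tie them to conditions. Gpnmb in monocytes/macrophages ranged from 0.23 to 5.39 CPM over the hashtags. Spp1 stood at 5.26, 3.49, 2.18, 3.51, 2.74, 699.1 and 952.0 CPM for hashtags 1 to 7. Trem2 stood at 61.2, 110.1, 95.6, 98.9, 87.3, 117.2 and 170.5 CPM and Apoe between 1761 and 3674 CPM. In 1 draw of 2000 UMIs per cell, no monocyte or macrophage of any hashtag held Trem2, Gpnmb and Spp1 together, which allows shares of up to 0.423% to 1.21% by hashtag. In the separate draw made for state clusters, 1 cell of 289 in the cluster led by Thbs1, Arg1 and Ccl2 did (0.346%).

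For co-detection, each cell was thinned to 2000 UMIs. In the CD45+ set, no cell of 495 at steady state (up to 0.606% allowed) and none of 238 on day 1 (up to 1.26%) held a UMI of Trem2, Gpnmb and Spp1. All 3 were found in 39 of 633 cells on day 3 (6.16%, exact 95% interval 4.42 to 8.33), 194 of 731 on day 5 (26.5%, 23.4 to 29.9) and 103 of 572 on day 7 (18.01%, 14.9 to 21.4). In the pool they were found in 5 of 240 cells on day 1 (2.08%, 0.68 to 4.795), 204 of 1153 on day 3 (17.7%, 15.5 to 20.02) and 449 of 1393 on day 5 (32.2%, 29.8 to 34.8). The share was highest on day 5 in both sets, and on day 3 it was higher in the pool. Neutrophils held all 3 in 0% to 2.5% of cells (1 of 40 at most) and B cells of day 7 in 6 of 964 (0.622%).

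The single RNAs differed in their time course. In the pool Spp1 was found in 78.3%, 80.5% and 86.9% of cells on days 1, 3 and 5, Trem2 in 25.8%, 54.0% and 72.9%, and Gpnmb in 5.0%, 25.7% and 39.3%. In the CD45+ set Spp1 was found in 53.4%, 81.7%, 82.8% and 70.3% of cells on days 1, 3, 5 and 7, Trem2 in 3.78%, 37.3%, 65.5% and 67.1%, and Gpnmb in 2.94%, 12.8%, 33.1% and 21.9%. Steady-state cells held Trem2 in 26.9%, mostly alone: 127 of 495 cells had Trem2 only, and 1 had Gpnmb only. Gpnmb was rarely found by itself later too, in 7, 8 and 2 cells on days 3, 5 and 7 of the CD45+ set and 15 and 5 cells on days 3 and 5 of the pool. Spp1 alone was common, in 309 and 212 cells of the pool on days 3 and 5. The share with all 3 was 1.58, 1.48 and 1.75 times the product of the single shares on days 3, 5 and 7 of the CD45+ set, and 1.59 and 1.30 times on days 3 and 5 of the pool. In B cells of day 7 that ratio was 1.01. The class mixes states: Trem2 was found in 26.1% and Gpnmb in 6.46% of monocyte-like cells of the CD45+ set. In its Ccl8-led cluster they were found in 83.9% and 65.6% of cells. The part of this mixture in the ratios was not tested. Neutrophils of the pool held an Spp1 UMI in 80.6%, 75.9% and 66.7% of cells on days 1, 3 and 5, on day 1 no less often than macrophages, and B cells of day 7 in 48.2%, so the presence of Spp1 RNA did not separate the classes; the part of free RNA was not tested. States were thinned in a separate random draw, so their counts do not add up exactly to those by day. The states with most cells of all 3 were the Ccl8-led cluster of the CD45+ set (54.6% of 317) and the Selenop-led and Hmox1-led clusters of the pool (50.0% of 350 and 43.8% of 400), against 1.44% and 1.49% of monocyte-like cells led by Plac8.

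**Figure D5:**
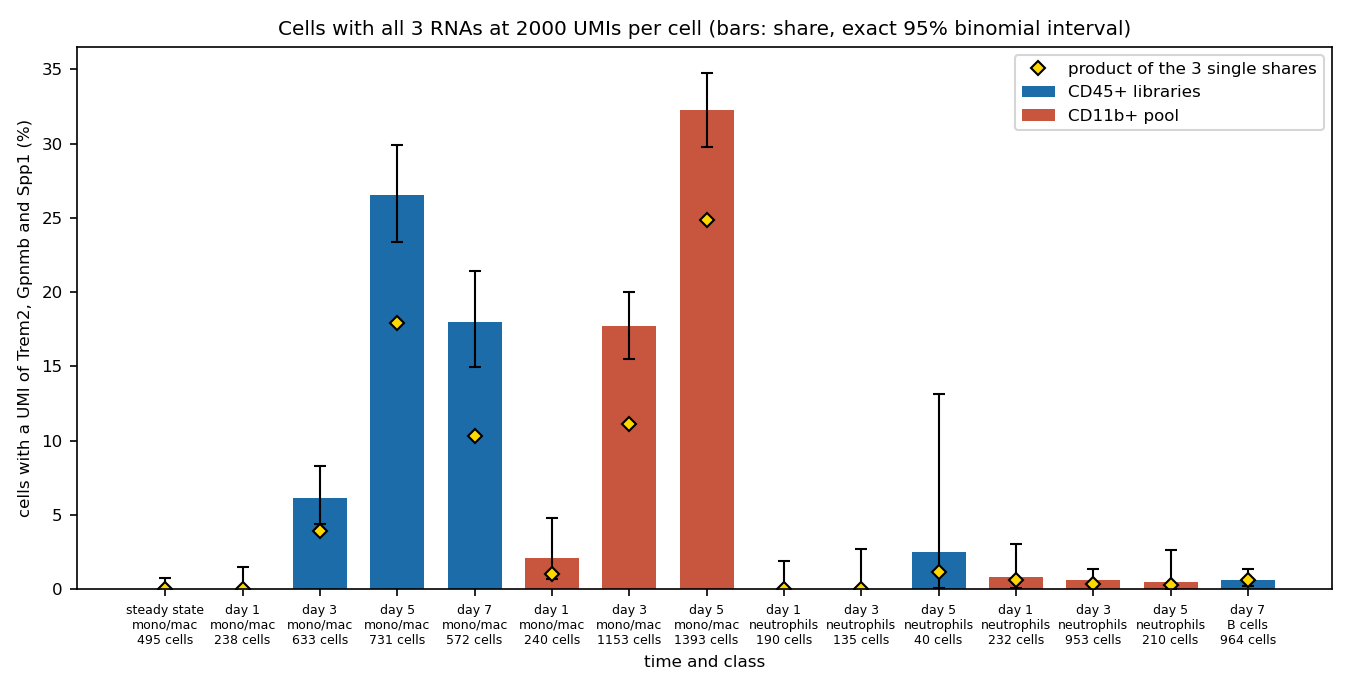
Share of cells (%) with at least 1 UMI of Trem2, Gpnmb and Spp1 after thinning to 2000 UMIs, by time and class, with exact 95% binomial intervals; diamonds are the product of the 3 single shares. On day 5 the share was 26.5% in the CD45+ set and 32.2% in the pool, above the diamonds, and it was 0.622% in B cells of day 7.

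Surface antibodies of the CD11b+ pool were compared between monocytes/macrophages with and without a Trem2 UMI, as medians of each antibody's share of a cell's antibody counts. On day 3 the 623 cells with Trem2 had a larger share of CD64 (7.96% against 4.66% in the 530 without), Cx3cr1 (9.85% against 7.15%), MSR1 (4.58% against 3.28%) and F4/80 (10.1% against 8.44%). Their share of Ly6C, the marker of recent monocytes, was smaller (10.8% against 14.8%). On day 5 the differences had the same direction and were smaller: CD64 stood at 8.24% against 6.23% and Ly6C at 10.2% against 11.5%. On day 1, with 62 cells against 178, CD64 stood at 5.59% against 4.77%, Ly6C at 25.0% against 25.8%, MSR1 at 3.75% against 3.90% and F4/80 at 9.195% against 9.17%. TIM4, a marker of resident macrophages, was near level on day 3 (3.78% against 3.62%). Every antibody other than Ly6C had a larger share with Trem2 on day 3. These included Ly6G (16.2% against 15.8%), Ccr2 (6.29% against 5.95%) and IA/IE (13.95% against 12.4%). The values are parts of a cell's total, so a smaller share of Ly6C by itself makes the other shares larger. Cells with Trem2 were also deeper before thinning (median 33000 against 24479 UMIs on day 3), and the part of cell size in these values was not tested. With 3 days in 1 library, no test was made. In the blood and heart pool Ly6C had no single direction: cells with Trem2 had more of it under hashtags 2 (31.4% against 21.1%), 3 (39.6% against 36.0%), 4 (33.5% against 25.4%) and 5 (32.3% against 22.5%), and less under hashtags 1, 6 and 7. CD64 there was lower with Trem2 under hashtags 1 to 5 and higher under 6 (1.43% against 1.26%) and 7 (1.78% against 1.42%).

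Across sums of state by day (22 in the CD45+ set, 27 in the pool), the genes most like Trem2 among 2014 were Ms4a7 (Pearson r of log2(CPM + 10) 0.921 and 0.932 in the 2 sets), the lysosomal phospholipase-like Pld3 (0.913 and 0.933), Syngr1 (0.910 and 0.969), and the lysosomal proteases Ctsd (0.90 and 0.916) and Ctsa (0.886 and 0.928). The genes most like Gpnmb were Syngr1 (0.933 and 0.950), Fabp5 (0.975 and 0.932), Ctsd (0.904 and 0.898), the ferritin chain Ftl1 (0.866 and 0.860) and Pld3 (0.846 and 0.945). Those most like Spp1 were the protease Ctsl (0.872 and 0.883), the actin-capping Capg (0.835 and 0.874), Pdpn (0.771 and 0.824), Psmd1 (0.750 and 0.757) and Ctsd (0.736 and 0.746). Among the 10, Gpnmb ranked 27, Apoe 36 and Fabp5 69 by likeness to Trem2, Spp1 ranked 252, Tyrobp 801 and Cd9 1246. The sums share libraries and depth, so these are descriptions.

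Other genes of the pathway were taken from lists, and counted from day 1 to day 5 in monocytes/macrophages by the same edgeR test, in which 4.04% of all genes rose and 5.45% fell. The lists were chosen with earlier results of these data known, so their counts are descriptions and do not test the lists. Leaving out the CD45+ day 1 sum, a choice made after seeing the data, left 1 sum for day 1. Only median log2 changes are given for that fit. Of 21 lysosomal hydrolases and membrane proteins, 14 rose and none fell (median log2 change 1.45, beside -0.02 over all genes), among them the hexosaminidase subunit Hexa (2.37 ± 0.45, adjusted p = 0.034) and the protease Ctsd (2.19 ± 0.38, adjusted p = 0.0285). Ctsd went from 398.4 to 3834 CPM in the CD45+ set and from 1824 to 5981 CPM in the pool. Of 18 other genes known from disease-associated microglia, 7 rose and 1 fell (median 1.12), led by the growth factor Igf1 (4.83 ± 0.51, adjusted p = 0.00998) and Syngr1, which had no UMI on day 1 of the CD45+ set and 223.2 CPM on day 5, and 15.8 and 243.9 CPM in the pool. Of 15 tetraspanins and binding partners of Spp1 and Lgals3, 4 rose, including Tspan4 (1.87 ± 0.28, adjusted p = 0.0207) and Cd81 (1.40 ± 0.29, adjusted p = 0.0403), and 2 fell. When the CD45+ day 1 sum was left out, the median was 1.17 for the lysosomal genes and 1.06 for the microglia genes. It was 0.80 for tetraspanins and partners, beside 0.02 over all genes.

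The other lists had 1 to 5 calls each, too few to describe a list as a whole. Of 10 scavenger genes, 3 rose and 2 fell: the lipid scavenger and chemokine Cxcl16 rose by 2.68 ± 0.33 (adjusted p = 0.0131) and the scavenger receptor Msr1 fell by 1.71 ± 0.22 (adjusted p = 0.0142). Of 16 genes of cholesterol efflux and sterol sensing, 2 rose and 1 fell, the risers being the phospholipid transfer protein Pltp (3.32 ± 0.18, adjusted p = 0.00374) and the cholesteryl ester hydrolase Nceh1 (1.74 ± 0.32, adjusted p = 0.0327). Of 17 genes of fatty acid handling and lipid droplets, 1 rose, the lysosomal lipase Lipa (2.08 ± 0.29, adjusted p = 0.0172), and 3 fell, among them the droplet protein Hilpda (-1.48 ± 0.20, adjusted p = 0.0155). Of 17 TREM receptors and Tyrobp partners, none rose and 3 fell, with Trem1 at -2.75 ± 0.20 (adjusted p = 0.00585) and Clec5a at -1.66 ± 0.26 (adjusted p = 0.0223). Trem1 is also among the neutrophil markers whose sum fell over the same days. Of 8 MiT/TFE factors and lysosomal sensors, 1 fell and none rose. With the CD45+ day 1 sum left out, the median log2 change was 0.69 for scavenger genes, 0.47 for cholesterol efflux and 0.17 for fatty acid handling. It was -0.35 for TREM receptors and 0.36 for MiT/TFE factors. With all sums, between days 1 and 3 no gene of any list passed, and from day 3 to day 5 the lysosomal protease Ctsk alone did (3.50 ± 0.18, adjusted p = 0.0165), a gene named here because the count is 1. Calls in these steps too depended on the CD45+ day 1 sum. When it was left out, the median of the lysosomal genes was 0.79 in the first step and 0.44 in the second. Over all genes it was 0.02 and 8.6e-04.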

How the data were processed

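UMI counts of single cells were taken as deposited: per the labels and the submitters' processing notes they were made with Cell Ranger (the matrix headers of the pools give 3.0.2) on mm10 or GRCm38, and the count matrices hold raw counts without normalization. Barcodes under 200 genes or above 10% mitochondrial UMIs were left out. Doublets marked by Scrublet were removed from the CD45+ libraries and hashtag multiplets and negatives from the pools. Cells were clustered with scanpy 1.11.5 (2000 variable genes, 30 components, 15 neighbours, resolution 0.5 for classes and 0.8 for states) without the 10 genes. Classes were named by markers among the leading genes, and clusters left unnamed by that rule took the class of the nearest named cluster, a step chosen after the clusters were seen. UMIs were summed per class, day and set (at least 30 cells) and tested with edgeR 4.0.16 (TMM, quasi-likelihood, Benjamini-Hochberg over all genes, two-sided, threshold 0.05). DESeq2 1.42.0 was an alternative. The fits were tested on simulated counts: of 200 genes changed by 2 on the log2 scale, 87.5% were recovered for day 5 against day 1, 75.0% between classes and 5.5% for the interaction. Intervals are exact at 95%, and a count of 0 is given with the limit of 3 counts. Named genes were the 10 members, from each list and comparison up to 2 passing genes of at least 50 mean CPM with the largest change of the same direction in both sets, and the 5 genes most alike. The members and lists were chosen with earlier results of these data known.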

Additional observations from a re-analysis of the deposited data

Results flagged for a closer look

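The change from day 1 to day 5 differed between monocytes/macrophages and neutrophils, by the interaction term of edgeR's quasi-likelihood test, for Cd63 (difference 2.58 on the log2 scale) and for Lgals3 (2.27). Neither call held with own markers, with the 10 genes kept in the clustering, or without the day 3 or day 5 sums of the pool or the day 5 sums of the CD45+ set, and that of Lgals3 was lost at the 5% mitochondrial limit (adjusted p = 0.0519) and with total counts alone (adjusted p = 0.0576). The fitted differences use TMM scaling, which the CPM values given here do not, and with total counts alone they were 1.72 for Cd63 and 1.44 for Lgals3. Cd63 went from 290.5 to 1887 CPM in macrophages and from 502.0 to 689.1 CPM in neutrophils of the CD45+ set, and from 317.2 to 1280 CPM and from 304.9 to 577.6 CPM in the pool. Lgals3 went from 2435 to 5202 CPM in macrophages and from 1296 to 880.5 CPM in neutrophils of the CD45+ set, and from 3283 to 4615 CPM and from 1279 to 770.8 CPM in the pool.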

How the results depend on the processing

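Each day rests on 2 sums of pooled mice, and counts of calls moved with the settings. A day or interaction fit without 1 sum leaves a day with 1 sum. Its counts of calls show dependence on the settings only and are no support for a change. From day 1 to day 3 (0 of 10 called) DESeq2, no filter and a fit of only the 2 days gave 5 each, and leaving out state clusters led by genes of other cells or the MHC II-led cluster of the pool (both chosen after seeing the data) gave 3 each; leaving out 1 sum gave 0 to 7. From day 1 to day 5 (6) a fit with no term for the set gave 0, and leaving out 1 sum 4 to 10. From day 3 to day 5 (0) DESeq2 and no filter gave 3 each and only the 2 days 5, and leaving out 1 sum 0 to 6. Between classes (8) leaving out 1 sum gave 8 to 9. For the interaction (2), the 5% mitochondrial limit and total counts gave 1 each, DESeq2 5, no filter 7, own markers and clustering with the 10 genes 0 each, leaving out clusters led by other cells 5, and leaving out 1 sum 0 to 7.

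Over all genes, day 3 against day 1 had 4 calls, DESeq2 504, no filter 569, only the 2 days 324, own markers 2, clustering with the 10 genes or no term for the set 0, and 97 or 96 without clusters led by other cells or the MHC II-led cluster, with 1 to 2217 when 1 sum was left out. Day 5 against day 1 had 1008 calls, DESeq2 1588, no filter 1682, clustering with the 10 genes 383, only the 2 days 413, no term for the set 0, and 3167 or 3261 without the pool or CD45+ day 1 sum, 445 without the day 3 and 575 without the day 5 sum of the pool and 150 without the CD45+ day 5 sum. Day 5 against day 3 had 3 calls, DESeq2 100, no filter 67, only the 2 days 803, and 0 at the 5% limit, with own markers, with no term for the set and without clusters led by other cells, with 0 to 1367 when 1 sum was left out. The interaction had 79 calls, DESeq2 549, no filter 414, total counts 717, the 5% limit 49, clustering with the 10 genes 2 and own markers 0, with 0 to 1214 when 1 sum was left out. Total counts moved the median log2 value over all genes from 0.13 to 0.56 between classes and from -0.02 to 0.22 from day 1 to day 5; the calls between classes went from 2672 higher and 2153 lower to 3476 and 1245.

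Values changed sign as follows. Leaving out 1 sum gave, between days 1 and 3, -0.024 (CD45+ day 1 left out) to 0.50 for Tyrobp, and between days 1 and 5, -0.14 (CD45+ day 1) to 1.34 for Spp1. Between days 3 and 5 it gave -0.10 (pool day 3) to 0.32 for Tyrobp, -0.0039 (CD45+ day 5) to 0.85 for Lpl, -0.68 to 0.22 (CD45+ day 3) for Spp1 and -0.078 to 0.018 for Cd9, which was above 0 without the CD45+ day 3 sum or the day 5 sum of either set (0.0028 each). With own markers Lpl stood at -0.15 between days 1 and 3 and Cd9 at 6.5e-04 between days 3 and 5. Between classes, leaving out 1 sum gave -0.24 (CD45+ day 5) to 0.38 for Cd63, with -0.11 without the day 5 sums of the pool. In the interaction it gave -6.18 to 4.46 for Gpnmb, the lowest without the day 1 sums of the pool, where the remaining day 1 neutrophils had no Gpnmb UMI, and Cd9 at -0.53 with total counts. The cause was not tested elsewhere.

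The day 5 share with Trem2, Gpnmb and Spp1 was 18.6% at 1000 UMIs, 46.6% at 4000, 68.2% without thinning and 15.4% for at least 2 UMIs in the pool (32.2% at 2000), and 13.1%, 42.2%, 48.8% and 10.5% in the CD45+ set (26.5%). The day 5 level of Trem2 was 814.0 CPM as a mean over cells, 864.7 at the 5% limit and 907.4 without clusters led by other cells in the pool, and 712.4 as a mean over cells in the CD45+ set. The labels give no shared replicate numbers to pair by; the fits paired by set (days) and by day and set (classes) instead.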

Other observations

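Fabp5 was also high in dendritic cells, at 1883 CPM in 37 cells of day 5 and 1324 CPM in 53 cells of day 7, beside 1320 and 882.4 CPM in the monocytes/macrophages of the same libraries. These dendritic cells held 9.93 and 12.5 CPM of Lpl (3 and 7 UMIs). Lpl had its highest level of any heart class at steady state, in an unnamed class of 32 cells led by Fabp4, Jchain and Dcn, with 916.3 CPM (235 UMIs), beside 49.4 CPM in macrophages.

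One cluster could be compared between the uninjured heart and day 7, the resident-like macrophages (92 and 35 cells). Spp1 stood at 13.95 CPM at steady state and 373.6 CPM on day 7, beside 345.3 CPM in B cells of the day 7 library, so no change is read from it. Fabp5 stood at 30.2 and 150.1 CPM (104.7 in those B cells), Cd9 at 48.8 and 119.4 CPM (56.8 in B cells) and Gpnmb at 2.33 and 24.5 CPM (31.5 in B cells). Trem2 stood at 230.1 and 554.3 CPM (110.0 in B cells) and Lgals3 at 297.5 and 866.6 CPM (347.3 in B cells), while Apoe stood at 27860 and 25258 CPM. Each time is 1 library, so no test was made, and the part of free RNA was not tested.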
